A study of Mus musculus with 28 samples.

Results

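Aldehydes and ketones are handled by a pair of enzyme families. Aldehyde dehydrogenases (Aldh genes) oxidize aldehydes to acids with NAD or NADP, while aldo-keto reductases (Akr genes) reduce aldehydes and ketones to alcohols, mostly with NADPH. KEAP1 marks the transcription factor NRF2 for degradation, and loss of KEAP1 lets NRF2 accumulate and act on genes for detoxification, among which several aldehyde dehydrogenases and aldo-keto reductases are known targets in lung and liver. The members described here were the rows of the deposited table whose symbol starts with Aldh or Akr followed by a digit, without Aldh3a1. This rule gave 22 of 43143 rows, 15 of them Aldh and 7 Akr genes.

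RNA was measured in 28 libraries of the murine lung cancer line 3LL, in 7 groups of 4. WT, KEAP1-KO and KEAP1-NRF2-DKO (DKO) 3LL cells were sequenced from culture. The same lines were transplanted under the skin of 6-week-old male albino C57BL/6 mice with intact immunity, and tumors were taken on day 10. Experiment A had WT tumors on the left flank and KEAP1-KO tumors on the right flank, and Experiment B had KEAP1-KO tumors on the left and DKO tumors on the right. KEAP1-KO cells carry a frameshift in Keap1 exon 2 and were grown from a single colony, and DKO cells were made from KEAP1-KO cells by a further edit in Nfe2l2 exon 5, so DKO shares the Keap1 mutation. Both tumors of an experiment grew in the same mice, but the labels do not say which libraries share a mouse, and the tests treated the tumors as independent. Genotype cannot be told apart from clone in any comparison, nor from flank within an experiment. Nothing in the labels says that the 4 libraries of cultured cells came from separate cultures, and p-values then measure only the spread between these libraries.

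Depth recovered from the values was 4222365 to 7524264 reads per library. Keap1 had 649 to 751 normalized counts in WT cells and 153 to 197 in KEAP1-KO and DKO cells, and 436 to 501 in WT tumors against 136 to 229 in the other tumors. The Nfe2l2 row is a processed transcript that did not separate the genotypes, so the DKO label was read against Nqo1, a textbook NRF2 target, with medians of 5721 normalized counts in KEAP1-KO and 107 in DKO cells, and 5046 and 65.4 in the tumors of Experiment B. The labels' extraction protocol names liver, whereas the 2 hepatocyte markers with a row (of 7) summed to at most 12.3 normalized counts in any library. Leukocyte markers (8 of 8 with a row) summed to 3383 to 4208 normalized counts in WT tumors, 770 to 917 (Experiment A) and 1294 to 1675 (Experiment B) in KEAP1-KO tumors, 2249 to 3617 in DKO tumors and at most 9.66 in cultured cells, where Tyrobp was at 0 in all 12 libraries. In these bulk samples fewer cells of a type and less RNA per cell cannot be told apart.

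Most members are represented by a transcript that is not the complete mRNA. Of the 22 rows, 8 are processed transcripts, 7 retained introns, 2 transcripts subject to nonsense-mediated decay, 1 is protein coding (Aldh3a2-208) and 4 are rows of the gene (Aldh1a3, Aldh1b1, Aldh5a1 and Aldh8a1). In the GENCODE vM21 transcripts, coding sequence made up 303 of 845 bases of the Aldh2 row (Aldh2-205), 708 of 849 bases of the Akr1b8 row (Akr1b8-202), 123 of 5024 bases of the Akr1b3 row (Akr1b3-206) and 197 of 1383 bases of the Aldh1l2 row (Aldh1l2-204). The 4 rows that carry the main results are each shown here over 80 bases where sequence outside the coding exons (lower case) runs into a coding exon (capitals). Numbering is from the 5′ end of the transcript, with bases 387 to 466 of Aldh2-205, 102 to 181 of Akr1b8-202, 796 to 875 of Akr1b3-206 and 49 to 128 of Aldh1l2-204.
Aldh2-205: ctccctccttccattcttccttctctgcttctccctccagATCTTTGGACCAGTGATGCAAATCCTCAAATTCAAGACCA
Akr1b8-202: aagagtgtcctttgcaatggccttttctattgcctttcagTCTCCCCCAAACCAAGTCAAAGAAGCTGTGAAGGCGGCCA
Akr1b3-206: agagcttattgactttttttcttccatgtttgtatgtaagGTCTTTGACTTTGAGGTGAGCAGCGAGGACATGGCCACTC
Aldh1l2-204: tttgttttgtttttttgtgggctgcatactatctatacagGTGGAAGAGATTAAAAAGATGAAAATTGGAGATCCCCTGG
In all 4 the lower-case stretch ends in ag, the letters that close an intron. A level of such a row is therefore the level of that transcript as assigned by the authors' software, not of the mature mRNA of the gene.

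In tumors, 3 members rose with KEAP1 loss and fell with NRF2 loss. Aldh2 (mitochondrial oxidation of acetaldehyde and lipid-derived aldehydes), Akr1b8 (a reductase of the aldose reductase group) and Akr1b3 (aldose reductase, which turns glucose into sorbitol) exceeded their WT level in the KEAP1-KO tumors (Experiment A), and their DKO level was below that of KEAP1-KO tumors (Experiment B). Differences are given on the deposited scale, log2(normalized count + 4), with limma's adjusted p over all rows tested, and a row was called at an adjusted p under 0.05. Of 17 members tested in Experiment A, 3 were called higher (17.6%), where 5.61% of all 34215 rows were, and 0 were called lower, where 7.49% of all rows were. With limma and no adjustment, 2 members were lower at p under 0.05. In Experiment B, 4 of 17 members were called lower (23.5%), where 4.64% of all rows were, and 0 were called higher, where 4.22% of all rows were. No member was higher in Experiment B at an unadjusted p under 0.05 (0 of 17, limma). The median difference of the tested members was 0.15 in Experiment A, beside -0.03 over all rows, and -0.26 in Experiment B, beside 0. The joint pattern of the 3 members, higher in Experiment A and lower in Experiment B, was found in 1.69% of all rows, and the opposite pattern, which no member had, in 2.17%.

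**Figure D1:**
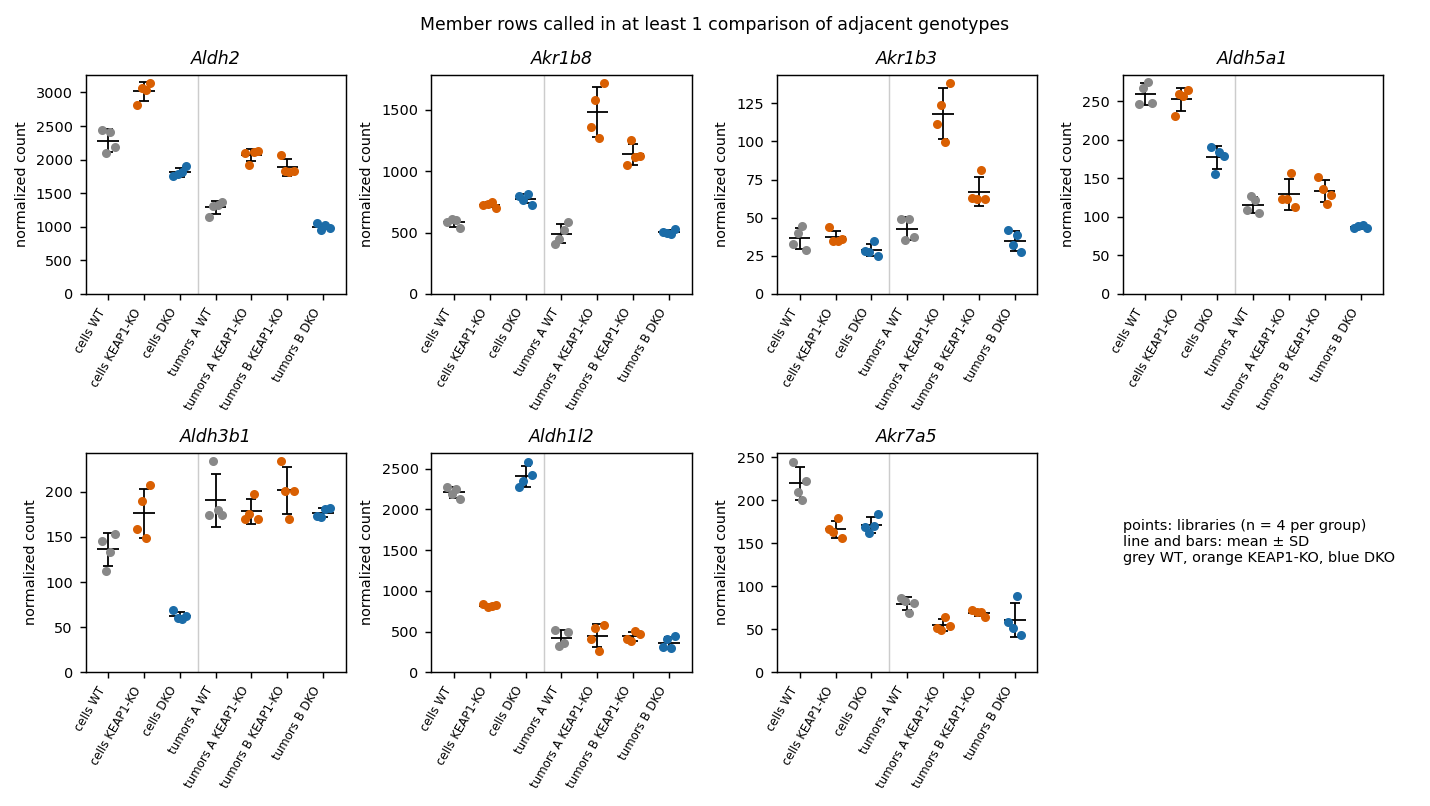
Normalized counts (vertical axes, from 0) of the 7 members called in at least 1 comparison of adjacent genotypes, in 7 groups of 4 libraries, with the mean and SD. Aldh2, Akr1b8 and Akr1b3 are high in KEAP1-KO tumors of both experiments, whereas Aldh1l2 is low in KEAP1-KO cells, at 799.5 to 838.7.

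Aldh2 had 1151, 1312, 1325 and 1370 normalized counts in the 4 WT tumors of Experiment A and 2095, 1926, 2116 and 2125 in the 4 KEAP1-KO tumors. For Experiment B the KEAP1-KO tumors gave 2075, 1832, 1809 and 1830 and the DKO tumors 1052, 958.1, 1026 and 979.8. Groups did not overlap in either experiment, and KEAP1-KO tumors of the experiments overlapped each other. The difference was 0.68 ± 0.07 (SE, 1.60-fold, adjusted p = 2.83e-06, limma) for KEAP1-KO against WT tumors. For DKO against KEAP1-KO tumors it was -0.91 ± 0.07 (1.87-fold lower, adjusted p = 2.44e-07, limma).

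Akr1b8 was 3.01-fold higher in KEAP1-KO than in WT tumors, the largest difference among the members tested in Experiment A. It had 410.5, 444.9, 520 and 588.3 normalized counts in WT tumors and 1361, 1579, 1269 and 1722 in the KEAP1-KO tumors beside them. Experiment B gave 1047, 1258, 1119 and 1127 with KEAP1-KO and 503, 493.5, 486.5 and 529.6 with DKO. DKO tumors were thus within the range of WT tumors, although of another experiment, and every KEAP1-KO library of Experiment A exceeded those of Experiment B. The differences were 1.59 ± 0.11 (adjusted p = 1.07e-07, limma) in Experiment A and -1.17 ± 0.11 (2.25-fold lower, adjusted p = 4.81e-06, limma) in Experiment B. Reads of Akr1b8 may be shared with its relatives: over 948 coding bases it was 85.2% identical to Akr1b10, with a longest identical run of 80 bases, and 84.8% identical to Akr1b7. The Akr1b10 row, at 9.53 to 25.4 normalized counts in tumors of all 4 groups, was not called.

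Akr1b3 was likewise high in the KEAP1-KO tumors of each experiment. WT tumors had 49.4, 35.24, 49.35 and 37.35 normalized counts and their KEAP1-KO counterparts 111.2, 123.7, 99.51 and 138.2. KEAP1-KO tumors of Experiment B had 62.84, 62.37, 81.16 and 62.16 and DKO tumors 41.64, 31.94, 38.85 and 27.29. Genotypes did not overlap within either experiment, but KEAP1-KO libraries of Experiment A lay wholly above those of Experiment B. The difference was 1.39 ± 0.16 (2.62-fold, adjusted p = 1.74e-05, limma) in Experiment A and -0.88 ± 0.16 (1.84-fold lower, adjusted p = 0.00193, limma) in Experiment B. Akr1b3 shared at most 73.4% of its coding bases with Akr1b7, Akr1b8 or Akr1b10, with no identical run above 24 bases.

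Aldh5a1, the succinate semialdehyde dehydrogenase of GABA breakdown, fell with NRF2 loss alone. DKO tumors had 85.47, 87.57, 89.84 and 85.28 normalized counts against 151.6, 135.9, 116.7 and 128.8 in their KEAP1-KO counterparts of Experiment B, a difference of -0.59 ± 0.11 (adjusted p = 0.00275, limma) with no overlap. In Experiment A, WT tumors had 108.7, 127.6, 121.5 and 105.3 and KEAP1-KO tumors 123.4, 122.6, 157.5 and 112.9, which overlapped (0.15 ± 0.11, adjusted p = 0.478, limma). DKO tumors were below all other tumors.

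Leukocyte markers moved against these members in tumors: 8 of 8 were called lower in Experiment A and 7 of 8 higher in Experiment B, and 9 of 9 macrophage markers were lower in Experiment A and 4 of 9 higher in Experiment B. Fibroblast markers summed to 4862 to 12252 normalized counts in WT and 1983 to 4854 in KEAP1-KO tumors of Experiment A, with 2 of 8 called lower. They summed to 2860 to 3593 normalized counts with KEAP1-KO and 10804 to 14695 with DKO in Experiment B, with 3 of 8 called higher. Skeletal muscle markers summed to 11.2 to 54.2 and 21.3 to 403 in the same groups. The part of these shifts in the members' differences was not tested. Leukocyte markers were at or near 0 in the cultured cells, whose values follow.

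In culture the members divided. Of 14 members tested, 2 were called higher in KEAP1-KO than in WT cells, Aldh2 and Akr1b8 (14.3%, where 8.13% of all 29744 rows were), and 2 lower, Aldh1l2 and Akr7a5 (14.3%, where 7.33% of all rows were). Between DKO and KEAP1-KO cells 1 member was called higher, Aldh1l2 (7.14%, where 3.98% of all rows were), and 3 lower, Aldh2, Aldh3b1 and Aldh5a1 (21.4%, where 4.85% of all rows were). The median difference of the tested members was 0.20 for KEAP1-KO against WT cells, beside 0.02 over all rows, and -0.05 for DKO against KEAP1-KO cells, beside -0.03. These comparisons share the 4 KEAP1-KO libraries, so their values are set side by side and no joint test was made. The pattern of higher in KEAP1-KO and then lower in DKO was met by 1 member, Aldh2, and by 2.16% of all rows. The reverse pattern was met by 1 member, Aldh1l2, and by 1.49% of all rows.

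Aldh2 was the single member that met the rule in tumors and in cells. Its counts were 2447, 2093, 2405 and 2186 in WT cells, 2819, 3069, 3034 and 3146 in KEAP1-KO cells and 1759, 1779, 1812 and 1908 in DKO cells. No genotype overlapped another, and DKO cells lay below WT cells. The difference was 0.40 ± 0.06 (1.32-fold, adjusted p = 2.57e-04, limma) for KEAP1-KO against WT cells and -0.73 ± 0.06 (1.66-fold lower, adjusted p = 2.36e-06, limma) for DKO against KEAP1-KO cells. For DKO against WT cells it was -0.33 ± 0.06 (adjusted p = 0.00110, limma).

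Aldh1l2, the mitochondrial formyltetrahydrofolate dehydrogenase of one-carbon metabolism, ran the other way in culture. It had 2278, 2186, 2251 and 2126 normalized counts in WT cells, 838.7, 799.5, 819.4 and 821 in KEAP1-KO cells, and 2279, 2351, 2580 and 2424 in DKO cells. KEAP1-KO cells stood far below both other genotypes, which lay close to each other. It was 2.69-fold lower in KEAP1-KO than in WT cells (-1.43 ± 0.04, adjusted p = 5.05e-10, limma) and 2.93-fold higher in DKO than in KEAP1-KO cells (1.55 ± 0.04, adjusted p = 1.37e-10, limma). In tumors its range was 328.6 to 516.5 (WT) and 265.7 to 581.1 (KEAP1-KO) in Experiment A, and 381.7 to 501.2 (KEAP1-KO) and 297.9 to 447.7 (DKO) in Experiment B. These ranges overlapped within each experiment, and neither difference was called (0.05 ± 0.22, adjusted p = 0.929; -0.28 ± 0.22, adjusted p = 0.538, limma).

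Akr1b8 rose less in culture than in tumors and did not fall in DKO cells. It had 588.3, 609.7, 601.3 and 534.3 normalized counts in WT cells, 723.5, 733.9, 751.6 and 698.3 in KEAP1-KO cells, and 801.3, 767.2, 812 and 725 in DKO cells. WT cells were below all others, while KEAP1-KO and DKO cells overlapped. KEAP1-KO cells were 1.25-fold above WT cells (0.32 ± 0.06, adjusted p = 0.00153, limma), and DKO against KEAP1-KO cells gave 0.09 ± 0.06 (adjusted p = 0.397, limma). Akr1b3 was at 28.97 to 44.42 in WT, 34.89 to 43.66 in KEAP1-KO and 24.76 to 34.58 in DKO cells, and neither of its differences was called (0.04 ± 0.16, adjusted p = 0.925; -0.34 ± 0.16, adjusted p = 0.264, limma).

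Aldh3b1, which oxidizes medium- and long-chain aldehydes, was low in DKO cells. Its counts were 145.9, 112.2, 133.3 and 153.4 in WT cells, 158.8, 189.6, 149 and 207.7 in KEAP1-KO cells, and 69.37, 59.9, 58.67 and 62.33 in DKO cells. All 4 DKO libraries were below all others, and WT and KEAP1-KO cells overlapped. DKO cells were 2.69-fold below KEAP1-KO cells (-1.43 ± 0.12, adjusted p = 8.79e-06, limma), and KEAP1-KO against WT cells gave 0.36 ± 0.12 (adjusted p = 0.0754, limma). The latter was called when KEAP1-KO replicate 3 was left out and with a mean filter of 25 counts. In either case Aldh3b1 met the pattern of Aldh2 in cells. In tumors Aldh3b1 had 169.4 to 234.4 normalized counts over all 4 groups, with differences of -0.09 ± 0.11 (adjusted p = 0.701) in Experiment A and -0.17 ± 0.11 (adjusted p = 0.417, limma) in Experiment B.

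In cells as in tumors, Aldh5a1 fell with NRF2 loss and was not called with KEAP1 loss. It had 246.3, 267.6, 275.2 and 247.8 normalized counts in WT cells, 230.3, 259.5, 256.5 and 264.1 in KEAP1-KO cells, and 190.5, 155.5, 184.4 and 178.5 in DKO cells. The DKO libraries were below all others (-0.50 ± 0.08 against KEAP1-KO cells, adjusted p = 0.00106, limma), and WT and KEAP1-KO cells overlapped (-0.04 ± 0.08, adjusted p = 0.827, limma).

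Akr7a5, a reductase of aflatoxin dialdehyde and succinate semialdehyde, was lower in both edited lines than in WT cells. It had 245.2, 210.4, 200.4 and 223.2 normalized counts in WT cells, 166.3, 163.4, 180.1 and 156.7 in KEAP1-KO cells, and 169, 161.8, 169.7 and 184.4 in DKO cells. KEAP1-KO and DKO cells overlapped each other and not WT cells. The difference was -0.39 ± 0.08 (adjusted p = 0.00432, limma) for KEAP1-KO against WT cells and 0.04 ± 0.08 (adjusted p = 0.852, limma) for DKO against KEAP1-KO cells. In tumors of Experiment A, WT libraries had 86.23, 82.88, 69.46 and 80.64 and KEAP1-KO libraries 51.13, 49.72, 64.73 and 53.54, which did not overlap (-0.51 ± 0.17), but the adjusted p was 0.0542 (limma). Without KEAP1-KO tumor replicate 3 of Experiment A it was called lower, and the number of members called lower there rose from 0 to 1. In Experiment B it had 64.42 to 72.82 with KEAP1-KO and 43.49 to 89.03 with DKO, which overlapped (-0.23 ± 0.17, adjusted p = 0.502, limma).

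**Figure D2:**
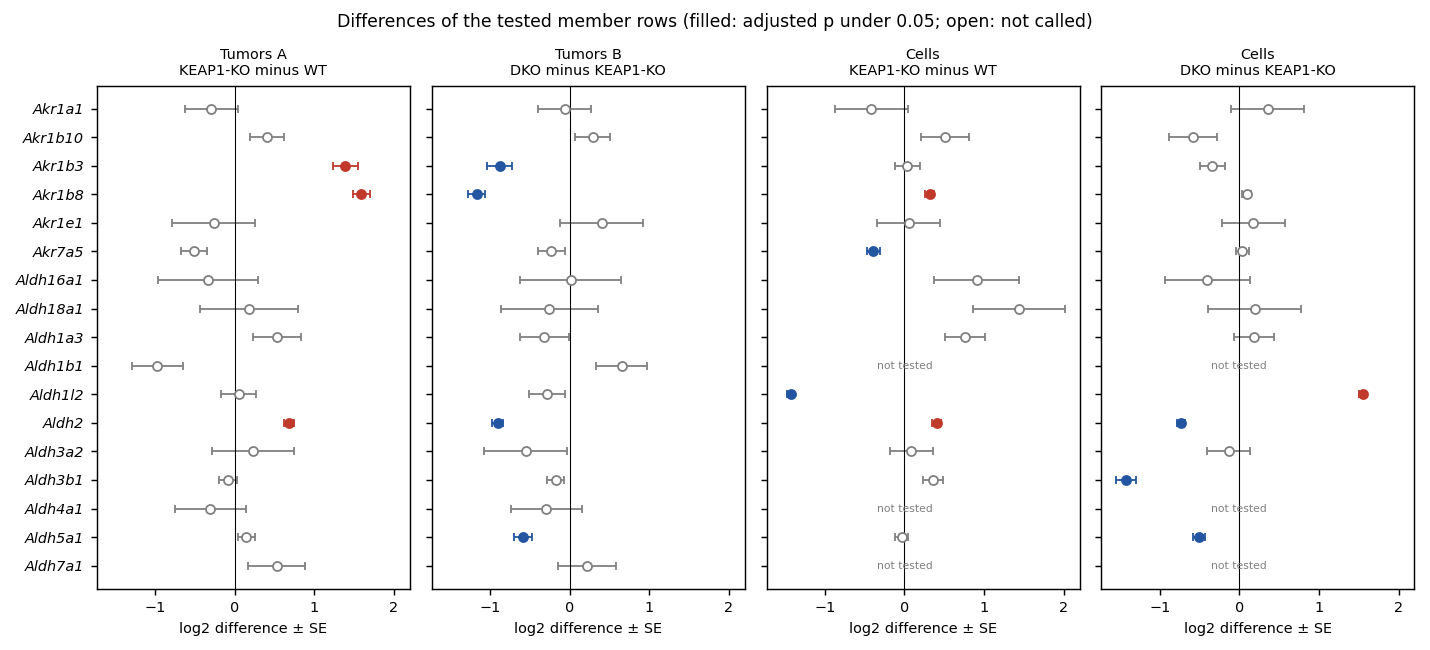
Log2 differences with SE (horizontal axes) of the 17 tested members in 4 comparisons, with filled points called by limma. Aldh2 is filled in all 4 panels, and Aldh1l2 is filled in the panels of cells alone.

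Set against WT cells directly, DKO cells had 2 members called higher, Akr1b8 and Aldh1a3 (where 8.46% of all rows were), and 4 lower, Aldh2, Aldh3b1, Aldh5a1 and Akr7a5 (where 9.20% of all rows were). Akr1b8 was 0.41 ± 0.06 higher (adjusted p = 1.85e-04), Aldh3b1 -1.07 ± 0.12 (adjusted p = 5.96e-05), Aldh5a1 -0.54 ± 0.08 (adjusted p = 3.28e-04) and Akr7a5 -0.35 ± 0.08 (adjusted p = 0.00771), all by limma. Aldh1a3, which makes retinoic acid from retinaldehyde, had 17.1, 8.633, 5.417 and 8.583 normalized counts in WT cells and 21.5, 21.02, 23.05 and 21.35 in DKO cells. Its difference of 0.95 ± 0.25 (adjusted p = 0.0203, limma) did not pass without WT replicate 3 (0.78, adjusted p = 0.0558, in a range of 0.00375 to 0.0558 over the alternatives), and 1 member was then called higher. Without DKO replicate 1 there were 4, with Aldh1l2 and Aldh18a1 added. KEAP1-KO cells had 12.07, 21.84, 20.75 and 21.49 counts of Aldh1a3, and its difference from WT cells (0.76 ± 0.25, adjusted p = 0.0618, limma) was called when WT replicate 1 or KEAP1-KO replicate 1 was left out.

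Whether an effect differed between tumors and cells was tested in 1 fit of all 28 libraries. The value tested is the signed log2 effect in tumors minus that in cells. For KEAP1 loss it was called above 0 in 3 of 17 members, Aldh1l2, Akr1b3 and Akr1b8 (where 1.50% of all 37246 rows were called in this direction), and called below 0 in 0 (where 3.88% were). Its median over the tested members was -0.10, beside -0.05 over all rows. With limma and no adjustment this value was below 0 at p under 0.05 in 2 of 17 members, Aldh1b1 and Aldh3b1. Aldh1b1 was at or near 0 in every library of cells and passed the filter of this fit through tumors alone. Its value (-1.05) therefore restates its difference in tumors (-0.98) and does not describe cells. Akr1b8 differed by 1.27 ± 0.13 (adjusted p = 3.29e-07) and Akr1b3 by 1.35 ± 0.22 (adjusted p = 1.68e-04, limma). Aldh1l2 differed by 1.48 ± 0.25 (adjusted p = 2.93e-04, limma), from a fall in cells to no call in tumors. The signed effect of NRF2 deletion was called higher in tumors for 1 member, Aldh3b1 (1.25 ± 0.16, adjusted p = 2.81e-05, limma, where 2.12% of all rows were), which fell in cells alone. It was called lower in tumors for 2 members (where 1.55% of all rows were): Akr1b8, by -1.26 ± 0.13 (adjusted p = 8.24e-07), and Aldh1l2, by -1.83 ± 0.25 (adjusted p = 4.22e-05, limma).

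For Aldh2 neither effect was shown to differ between tumors and cells (KEAP1 effect 0.28 ± 0.09, adjusted p = 0.0586; NRF2 deletion effect -0.17 ± 0.09, adjusted p = 0.365, limma). The KEAP1 effect of Aldh2 passed under 3 of the alternative settings, among them the sum of all rows of the gene (0.29, adjusted p = 0.0155). Akr1b3 fell with NRF2 deletion in tumors alone, but the difference of -0.54 ± 0.22 did not pass (adjusted p = 0.230, limma), and it did with its rows summed (-0.75, adjusted p = 0.0310). Over all rows, 559 were called higher and 1444 lower for the KEAP1 effect and 790 and 578 for the NRF2 deletion effect. After median centring of the libraries these were 1299 and 1071, and 650 and 874, and the median KEAP1 effect over all rows went from -0.05 to 0.11; the members called stayed called.

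**Figure D3:**
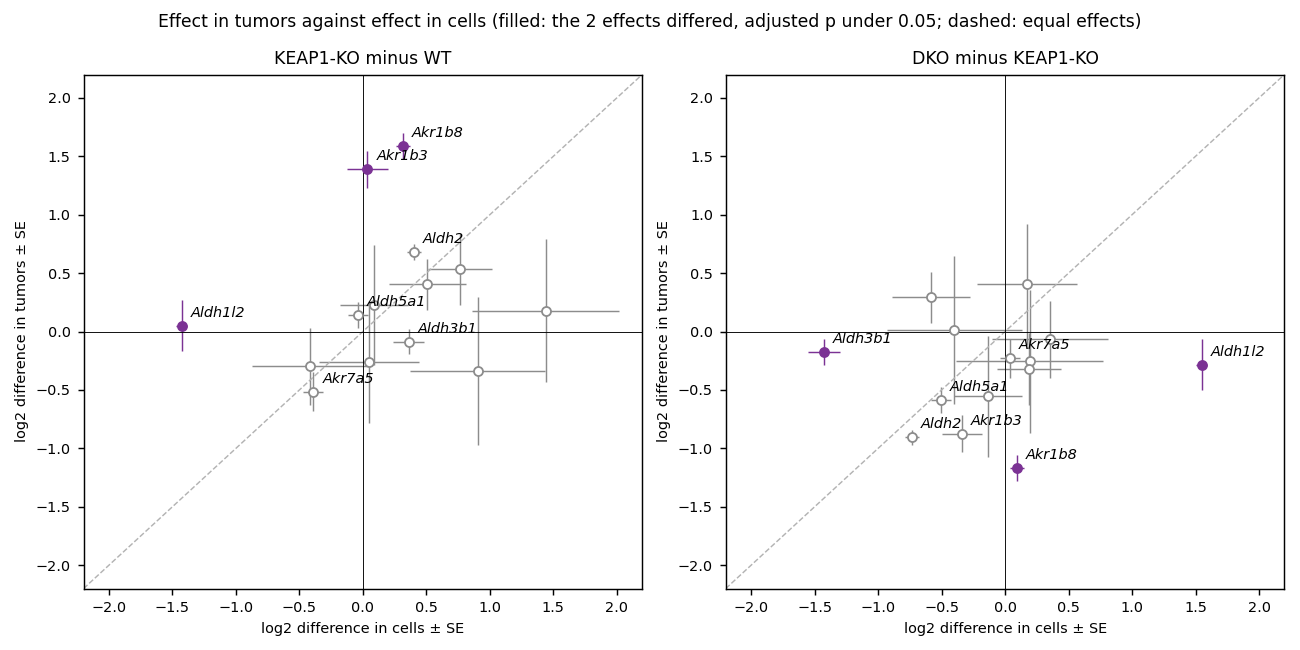
Log2 differences with SE in tumors (vertical axes) against those in cells (horizontal axes) for the 14 members tested in both, with filled points where limma called the effects different. Akr1b8 and Akr1b3 lie above the dashed line of equal effects on the left, and Akr1b8 and Aldh1l2 below it on the right.

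Other rows of the same genes were read beside the members. The table holds 29 rows without a symbol that annotate to 11 of the member genes, 21 of them tested in tumors and 15 in cells. In tumors 2 were called in each experiment, the same 2 both times. Aldh2-206, a protein-coding transcript, was 0.57 ± 0.13 higher with KEAP1-KO in Experiment A (adjusted p = 0.00751) and fell by 0.99 ± 0.13 in DKO tumors (adjusted p = 1.24e-04, limma). Akr1b3-203, a retained intron, was 1.42 ± 0.22 higher (adjusted p = 3.03e-04) and then -1.06 ± 0.22 (adjusted p = 0.00524, limma). Both had the direction of the member row. In cells, Aldh2-206 (-0.58 ± 0.11, adjusted p = 0.00406) and Aldh2-207 (-0.49 ± 0.11, adjusted p = 0.0159, limma) fell from KEAP1-KO to DKO, and none of the 15 was called between KEAP1-KO and WT cells (0 by limma, with Aldh2-206 at 0.30 ± 0.11, adjusted p = 0.0835). Between DKO and WT cells 2 were called lower, Aldh2-207 (-0.39 ± 0.11, adjusted p = 0.0328) and the protein-coding Aldh18a1-203 (-1.67 ± 0.36, adjusted p = 0.00643, limma). The member row of Aldh18a1, a retained intron, had the other sign there (1.63 ± 0.58, adjusted p = 0.0760, limma). Aldh1l2-205 gave -0.34 ± 0.34 and 0.73 ± 0.34 in cells, neither called (adjusted p = 0.593 and 0.255, limma).

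**Figure D4:**
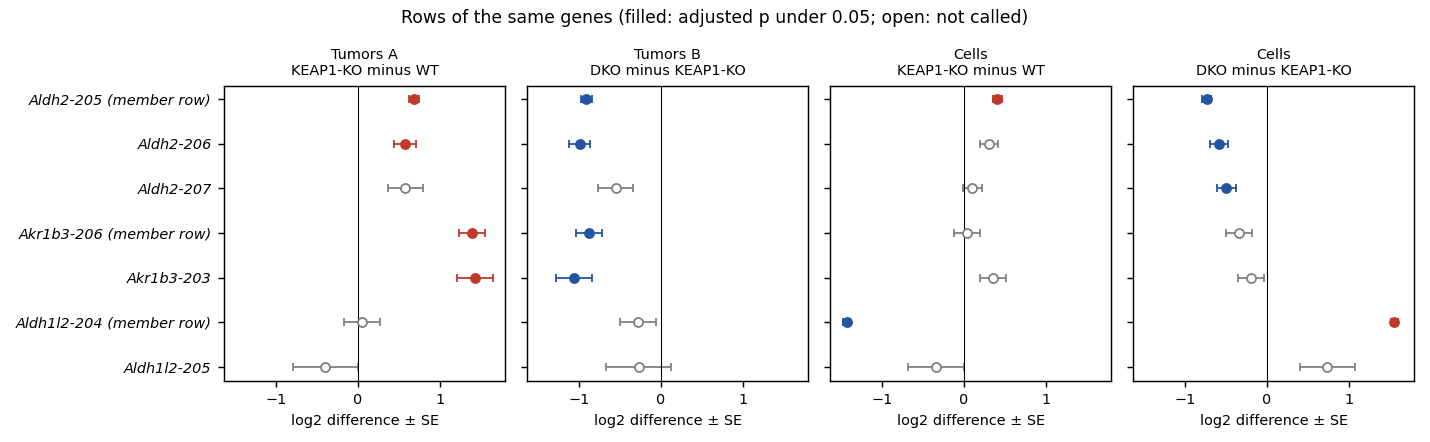
Log2 differences with SE (horizontal axes) of the member rows and of further rows of Aldh2, Akr1b3 and Aldh1l2 in 4 comparisons, with filled points called by limma. Aldh2-206 and Akr1b3-203 have the sign of their member row in all 4 panels.

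The other 15 members were not called between adjacent genotypes, and 10 of them were tested. In those 10, differences ran from -0.98 to 1.44 and the lowest adjusted p was 0.0579 (limma), for Aldh1b1, a mitochondrial relative of Aldh2, in Experiment A. Aldh1b1 had 4.763 to 9.139 normalized counts in WT tumors and 1.112 to 2.898 in KEAP1-KO tumors, and it was at 0 in 11 of 12 libraries of cells, at 0.929 in the other. Aldh18a1 (proline synthesis) reached 43.4 counts, Aldh3a2 (fatty aldehydes) 51.9, Akr1a1 (aldehyde reductase) 26.3, Akr1b10 25.4, Aldh1a3 23.1, Aldh16a1 22.4, Akr1e1 19.97, Aldh4a1 (proline breakdown) 13.6 and Aldh7a1 (lysine breakdown) 8.53 in their highest library. Aldh1b1, Aldh4a1 and Aldh7a1 passed the filter in the fits of tumors and of all 28 libraries but not in that of cells. Aldh6a1 (valine breakdown), Aldh8a1 (tryptophan breakdown), Aldh9a1 (carnitine synthesis), Aldh1l1 (the cytosolic counterpart of Aldh1l2) and Akr1c13 (a steroid reductase) were in no test, with at most 18.95, 7.54, 6.501, 7.29 and 5.67 counts, and Aldh6a1 was at 0 in 25 of 28 libraries. Akr1c13 is 96.2% identical to Akr1c12 over its coding bases, with an identical run of 228 bases, so its reads are uncertain.

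Enzymes outside both families that handle carbonyls or their products were read from a list of 33 genes, 29 with a row, of which 23 were tested in tumors and 22 in cells. In Experiment A 7 were called higher and 2 lower, where 5.61% and 7.49% of all rows were. In Experiment B 1 was higher and 7 lower, where 4.22% and 4.64% of all rows were. In cells 8 were higher and 2 lower in KEAP1-KO than in WT, where 8.13% and 7.33% of all rows were. Between DKO and KEAP1-KO cells 1 was higher and 6 lower, where 3.98% and 4.85% of all rows were. The same 6 genes, Adh7, Gsta4, Esd, Sord, Ptgr1 and Aox1, had the pattern of Aldh2 in all 4 comparisons. Of all rows, 1.69% had this pattern in tumors and 2.16% in cells. The reverse was called for Dhrs3, a retinal reductase, in tumors (-1.51 ± 0.18, adjusted p = 2.78e-05, then 1.22 ± 0.18, adjusted p = 3.58e-04, limma), and for Dhrs9, a retinol dehydrogenase, in cells (-0.76 ± 0.04, adjusted p = 7.85e-08, then 0.46 ± 0.04, adjusted p = 9.18e-06, limma). Adh7, an alcohol and retinol dehydrogenase, differed by 6.21 ± 0.30 in Experiment A (adjusted p = 2.07e-09) and -5.92 ± 0.30 in Experiment B (adjusted p = 3.04e-09, limma). Sord, which oxidizes the sorbitol made by aldose reductase, differed by 0.83 ± 0.13 (adjusted p = 3.62e-04) and -1.37 ± 0.13 (adjusted p = 5.44e-06) in tumors, and in cells by 1.51 ± 0.09 (adjusted p = 1.97e-07) and -3.50 ± 0.09 (adjusted p = 6.67e-11, limma), where Akr1b3 was not called. Glo1, the methylglyoxal-clearing glyoxalase, rose with KEAP1 loss in tumors (0.80 ± 0.07, adjusted p = 1.32e-06) and in cells (0.45 ± 0.05, adjusted p = 5.76e-05, limma). It was not called with NRF2 deletion in tumors (-0.04 ± 0.07, adjusted p = 0.835) or cells (-0.11 ± 0.05, adjusted p = 0.246), and it stayed above WT in DKO cells (0.34 ± 0.05, adjusted p = 5.33e-04, limma).

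Enzymes and carriers that work next to the members were read from a second list of 27 genes, 22 with a row, 16 tested in tumors and 15 in cells. In cells 4 were called higher and 4 lower in KEAP1-KO than in WT, and 4 higher and 2 lower in DKO than in KEAP1-KO. Shmt2, which feeds one-carbon units into mitochondrial folate, was -0.66 ± 0.04 (adjusted p = 5.22e-07) and then 0.79 ± 0.04 (adjusted p = 1.11e-07, limma), the direction of Aldh1l2. Pycr1, which completes proline synthesis, was -0.87 ± 0.09 (adjusted p = 3.15e-05) and then 0.85 ± 0.09 (adjusted p = 5.92e-05), and Prodh, which starts proline breakdown, -0.68 ± 0.09 (adjusted p = 2.91e-04) and then 0.62 ± 0.09 (adjusted p = 9.80e-04, limma). Hibch, of valine breakdown, went the other way (0.71 ± 0.08, adjusted p = 3.02e-05, then -0.45 ± 0.08, adjusted p = 0.00197, limma). Rara, a retinoic acid receptor, was called higher in both comparisons (0.43 ± 0.08 each, adjusted p = 0.00338 and 0.00580) and Bckdha, of branched-chain amino acid breakdown, lower in both (-0.54 ± 0.08 and -0.33 ± 0.08, adjusted p = 7.20e-04 and 0.0263, limma). In Experiment A, where Aldh1l2 was not called, Hibch was called higher (0.73 ± 0.16, adjusted p = 0.00511) and Prodh (-0.74 ± 0.19, adjusted p = 0.0139) and Rara (-0.24 ± 0.08, adjusted p = 0.0487, limma) lower. In Experiment B, Rara was called higher (0.36 ± 0.08, adjusted p = 0.00599, limma) and Mthfd1 lower (-0.50 ± 0.11, adjusted p = 0.00895, limma). The signed effect of NRF2 deletion was lower in tumors than in cells for Shmt2 (-0.97 ± 0.14, adjusted p = 5.86e-05) and Pycr1 (-0.97 ± 0.17, adjusted p = 7.15e-04, limma). That of KEAP1 loss, called for Aldh1l2, was not called for Shmt2 (0.40 ± 0.14, adjusted p = 0.0919) or Pycr1 (0.47 ± 0.17, adjusted p = 0.126, limma).

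NRF2 binds the antioxidant response element, whose core TGACNNNGC was searched on both strands of RefSeq promoters (GRCm38.p6, 250 bases before to 50 after the start). Promoters were at hand for 17 of the 22 members, and the core was in 1, Aldh9a1 (chr1:167349741-167350040, plus strand), which was in no test. It was in 12.4% of the 32851 promoters. Akr1b8, Aldh3b1, Aldh5a1 and Akr7a5 had a promoter without the core. No entry was read for Aldh2, Akr1b3 and Aldh1l2. A match describes the letters of this window and no binding was measured.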

How the data were processed

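RNA-seq of 28 libraries (12 of cells, 16 of tumors) was used. Per the paper's methods, the authors depleted ribosomal RNA, made directional libraries and estimated transcript abundance with Salmon on GENCODE mouse sequences. The deposited table is in log2 units, log2(normalized count + 4): once reversed, 100% of the low values checked came out as whole reads (tolerance 0.1). The study speaks of TPM. No count model was run on these log2 values. Per-sample columns not used: 0.

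The filter kept rows reaching 5 normalized counts in 4 or more libraries of a fit. Group means were compared by limma 3.58.1 (R 4.3.3), with a variance trend, Benjamini-Hochberg adjustment over all rows and a threshold of 0.05. Tumors (4 groups), cells (3 groups) and, for tumors minus cells, all 28 libraries were 1 fit each. The test was tried on simulated data. Members and lists were chosen with earlier results of these data known. Members are given in each library where a call between groups is described, and otherwise mostly by range. Names, coding bases and identities are from GENCODE vM21 (96.95% of transcript rows matched, 22 of 22 members), whose build may not be that of the table, so row coordinates are not given. Figures used matplotlib 3.10.9. Alternatives were another pseudocount (0.4), other filters, scalings, fits and a replicate block, and leaving out each replicate. Some results on the enzymes beside the members are not reported here.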

Additional observations from a re-analysis of the deposited data

Results flagged for a closer look

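Effects that differed between tumors and cells by limma's interaction test (adjusted p under 0.05) were those of Akr1b8, with 1.27 for KEAP1 loss and -1.26 for NRF2 deletion, of Aldh1l2, with 1.48 and -1.83, of Akr1b3, with 1.35 for KEAP1 loss, and of Aldh3b1, with 1.25 for NRF2 deletion (log2 effect in tumors minus that in cells).

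One library stood apart from the other 3 of its group (its gap to the nearest one, divided by the group's range, passed Dixon's critical ratio) in 6 of 56 pairs of a called member and a group. Chance gives about 1 in 20. Akr1b3 was highest in KEAP1-KO cell replicate 1 (ratio 0.884, 43.7 normalized counts) and in KEAP1-KO tumor replicate 3 of Experiment B (0.959, 81.2 counts). Aldh1a3 was lowest in KEAP1-KO cell replicate 1 (0.909, 12.1 counts). Aldh2 was lowest in KEAP1-KO tumor replicate 2 of Experiment A (0.857, 1926 counts) and highest in KEAP1-KO tumor replicate 1 of Experiment B (0.907, 2075 counts). Aldh3b1 was highest in WT tumor replicate 2 (0.886, 234 counts).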

How the results depend on the processing

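Of the values of called members under other settings, 402 kept their direction and call, 2 lost the call and 0 reversed; both losses were Aldh1a3 in DKO against WT cells, under the replicate block (0.95) and without WT replicate 3 (0.78), and a mean filter of 25 counts left that row out. In Experiment A the number of members called lower went from 0 to 1 with the mean filter, with only the groups compared (Akr7a5 each time) and without the variance trend (Aldh1b1), and ranged from 0 to 1 when a replicate was left out; the cause was not tested. Members called higher in DKO than in WT cells ranged from 1 to 4 when a replicate was left out. Same-numbered libraries correlated between -0.03 and 0.03 in their deviations, so no pairing by number was seen. Correlations over all tested rows could miss a shared mouse or culture, so a pairing is not excluded. In DKO and WT cells each library correlated best with its own number. With the replicate number as a block, calls higher and lower were 3 and 0 in Experiment A, 0 and 4 in Experiment B, 3 and 2 for KEAP1-KO against WT cells (Aldh18a1 gained), 1 and 3 for DKO against KEAP1-KO cells, 2 and 4 for DKO against WT cells (Aldh18a1 gained), 3 and 0 for the KEAP1 effect and 1 and 2 for the NRF2 deletion effect. The sum of all rows of a gene was added after the data were seen. With 4222365 to 7524264 reads, rows near 0 have understated differences on this scale.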
